A study of Ovis aries with 10 samples.

Results

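The genes described here are those of DNA replication and S phase: the proteins that license origins, unwind and copy DNA, supply nucleotides and drive cells from G1 into S phase. They were chosen by symbol, as 42 names, of which 39 have a row among the 19316 rows of the authors' deposited table of differential expression. E2F1, MCM2 and RRM2 were not found under those symbols and were not analysed here. Each of the 39 symbols has a single row. Levels are in TPM, a transcript abundance scaled by length and by library total, and all 39 averaged 1 TPM or more, so no filter on low values removed any of them.

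Adrenal gland RNA of fetal sheep, sampled at 102 days of gestation, was sequenced in 10 libraries. The 5 endotoxin libraries (3 female, 2 male) came from a group injected with endotoxin, the lipopolysaccharide of Gram-negative bacteria that provokes inflammation. The 5 control libraries (3 female, 2 male) came from a group injected with saline. Dose, route and time between injection and sampling were not taken from any source used here, and no label says whether every library is from a separate pregnancy. The tables with a value per library carry gene IDs without symbols, so values per library cannot be given for named genes, and the 2 group means stand in their place, with the standard error of the fold change from the authors' model. The table names its groups only by the letters A and B, and here B is read as endotoxin, as the study's title implies. The labelled TPM table has 16 genes at least 8-fold higher and 3 at least 8-fold lower with endotoxin, and the authors' deposited table has 19 and 3 in B. If that reading were wrong, every direction given here would turn.

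DNA replication is prepared in G1 and carried out in S phase. The origin recognition complex with CDC6 and CDT1 loads the MCM helicase onto DNA, cyclin E with its kinase helps to start firing, and CDC45 with the GINS proteins turns the loaded helicase into an active one. Primase and the polymerases then copy both strands, held by the PCNA clamp. Most of these genes are induced by E2F transcription factors as cells leave G1, whereas the genes of mitosis are switched on later, in G2. In the fetal adrenal gland, growth of the cortex rests on cell division as well as on enlargement of cells.

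Most replication genes had slightly lower mean levels with endotoxin than in controls, and none of the 39 passed the threshold. Of the 39 genes 35 had a negative log2 fold change and 4 a positive one according to the authors' deposited table, and the median was -0.15. Among all rows of the authors' deposited table averaging 1 TPM or more, 48.2% had a negative value and the median was 0.012. At an adjusted p under 0.05, the threshold used here, 0 of the 39 rose and 0 fell, with adjusted p between 0.221 and 0.989 by the authors' deposited table. Of its 19236 tested rows 1.72% passed, 1.29% higher and 0.426% lower with endotoxin. At an unadjusted p under 0.05, 3 of the 39 were lower (CDC6, TYMS and POLA1) and 0 higher according to the authors' deposited table, against 5.35% of all tested rows lower and 7.58% higher. The count lower is close to its background and the count higher is below its own. Neither difference was tested, and the counts give no result about the list. It was described by its counts and median, with no test of the list as a whole. In bulk tissue, fewer cells in S phase and less of these transcripts per cell cannot be told apart.

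**Figure D1:**
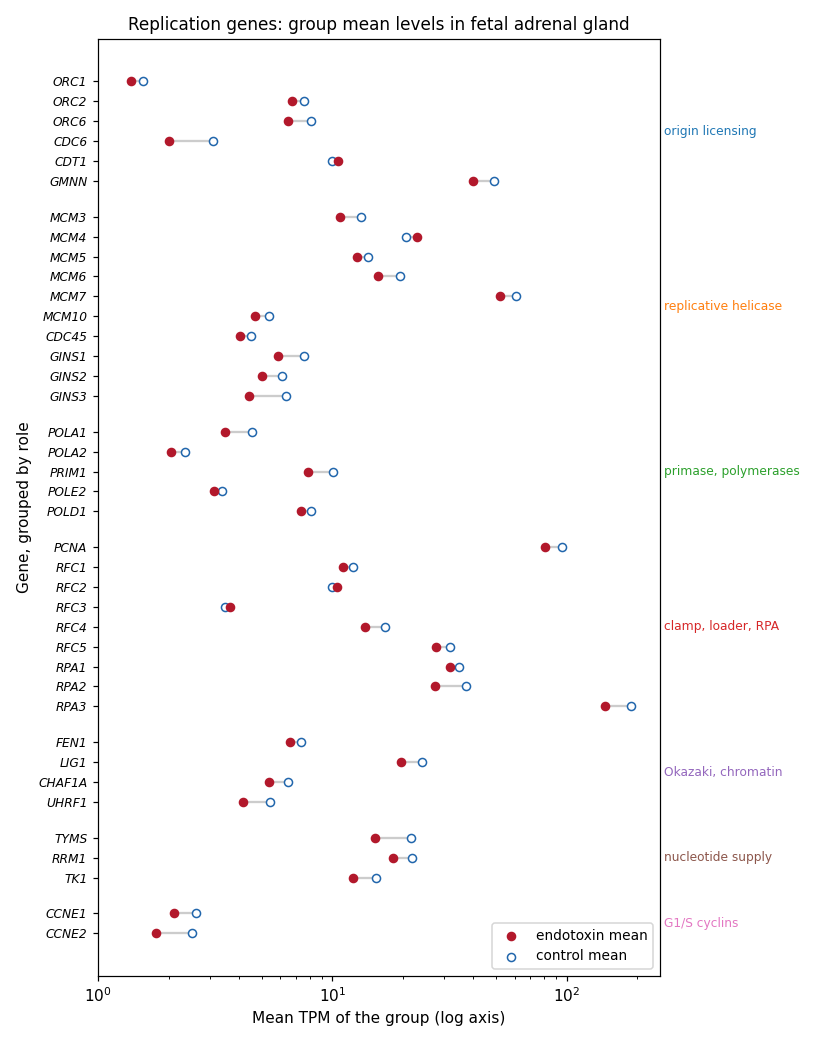
Mean TPM of the endotoxin group (filled red) and of the control group (open blue) for the 39 replication genes, on a log axis, grouped by role. The endotoxin mean lies left of the control mean for 35 genes and right of it for CDT1, MCM4, RFC2 and RFC3.

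The levels of the genes differ far more among themselves than between the groups. RPA3, the smallest subunit of the single-strand binding protein RPA, was the most abundant, at 146 TPM with endotoxin and 189 TPM in controls by the authors' deposited table. PCNA, the sliding clamp that tethers polymerases to DNA, followed with 80.4 TPM with endotoxin and 95.1 TPM in controls according to the authors' deposited table. The helicase subunit MCM7 had 51.8 TPM with endotoxin and 60.5 TPM in controls by the authors' deposited table. GMNN (geminin), which binds CDT1 and prevents a second round of licensing, had 39.7 TPM with endotoxin and 48.7 TPM in controls by the authors' deposited table. RPA1, the largest RPA subunit, came next, with 31.7 TPM with endotoxin and 34.8 TPM in controls according to the authors' deposited table. At the low end were ORC1, which opens origin recognition, with 1.39 TPM with endotoxin and 1.56 TPM in controls, and the cyclin E gene CCNE2, with 1.77 TPM with endotoxin and 2.51 TPM in controls, by the authors' deposited table. The median of the 39 means over both groups was 8.93 TPM, against 11.2 TPM for all rows averaging 1 TPM or more, and 22 of the 39 lay below that median of all rows according to the authors' deposited table. Without values per library, it cannot be said which neighbours in this order differ beyond the spread between libraries.

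Summed over the 39 genes, the authors' deposited table gives 666 TPM with endotoxin and 803 TPM in controls, a difference of -17.0%. On this scale genes in general sat lower with endotoxin: the median log2 ratio of mean TPM plus 1 over all rows averaging 1 TPM or more was -0.10, and 65.9% of those rows were negative, by the authors' deposited table. The median of the replication genes on the same scale was -0.23. No replication gene changed sign between the scales, and 34 of the 39 stayed negative after the median of all rows on the TPM scale was subtracted. All fold changes below are those of the authors' model, endotoxin over control, on the log2 scale with the authors' standard error (SE).

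**Figure D2:**
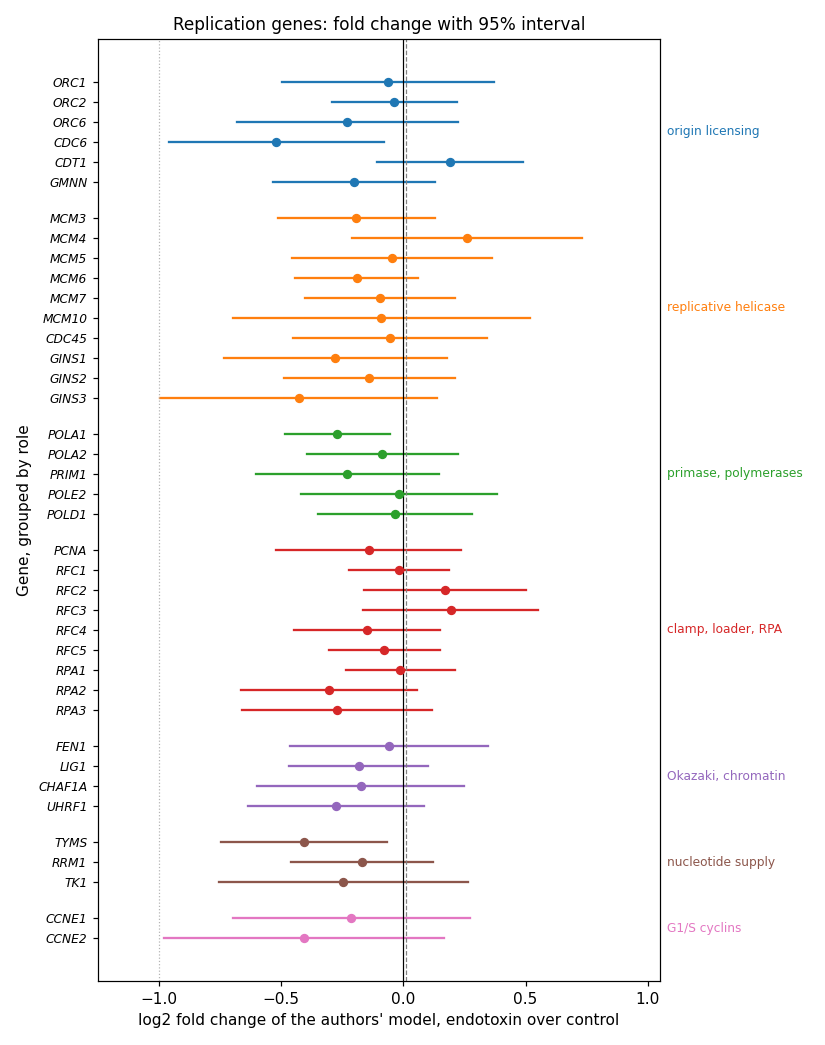
Log2 fold change of the authors' model (points) with its 95% interval (lines) for the 39 replication genes, coloured by role. The solid line is 0, the dashed line the median of all rows averaging 1 TPM or more (0.012), and the dotted line a 2-fold fall. The intervals of CDC6, TYMS and POLA1 lie below 0, and no interval reaches a 2-fold fall.

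Among the genes that license origins, CDC6, the ATPase that brings the helicase to them, had the lowest fold change of all 39 genes, with 2.0 TPM with endotoxin and 3.08 TPM in controls according to the authors' deposited table. This is a log2 fold change of -0.52 ± 0.22 (SE; unadjusted p = 0.0207, adjusted p = 0.258) by the authors' deposited table, so it did not pass. Its partner in loading, CDT1, stood on the other side of 0, with 10.6 TPM with endotoxin and 9.96 TPM in controls, at 0.19 ± 0.15 (adjusted p = 0.686) according to the authors' deposited table. The inhibitor of CDT1, GMNN, was at -0.20 ± 0.17 (adjusted p = 0.708) by the authors' deposited table. Of the 3 origin recognition subunits, ORC6 was at -0.23 ± 0.23, ORC1 at -0.06 ± 0.22 and ORC2 at -0.04 ± 0.13 according to the authors' deposited table. The 6 licensing genes had a median of -0.13, with 5 negative. The intervals of CDC6 (upper end -0.08) and CDT1 (lower end -0.11) overlap only at their ends. The difference between these 2 genes was not tested.

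Of the 10 measured genes of the replicative helicase 9 were negative, with a median of -0.12, and none passed. GINS3, a subunit of the GINS complex that joins the active helicase, was lowest by the authors' deposited table, with 4.39 TPM with endotoxin and 6.32 TPM in controls (-0.43 ± 0.29, adjusted p = 0.583). Its partners GINS1 and GINS2 were at -0.28 ± 0.23 and -0.14 ± 0.18 according to the authors' deposited table. The highest was MCM4, a subunit of the helicase ring, with 23.0 TPM with endotoxin and 20.7 TPM in controls (0.26 ± 0.24, adjusted p = 0.758) by the authors' deposited table. The other ring subunits, which assemble with MCM4 in equal numbers, were all negative according to the authors' deposited table: MCM3 and MCM6 at -0.19, MCM7 at -0.10 and MCM5 at -0.05, with SE between 0.13 and 0.21. MCM6 had the smallest p of the ring, with 15.6 TPM with endotoxin and 19.5 TPM in controls (unadjusted p = 0.137, adjusted p = 0.583) by the authors' deposited table. The interval of MCM4 ran from -0.21 to 0.73 and overlapped those of its partners according to the authors' deposited table. The difference between MCM4 and its partners was not tested. CDC45, the other cofactor of the active helicase, was at -0.06 ± 0.20, and MCM10, which helps to activate it, at -0.09 ± 0.31, the widest SE of the 39, by the authors' deposited table.

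In the group of primase and polymerases, POLA1, the catalytic subunit of the polymerase that extends RNA primers, had the smallest p of the 39 genes according to the authors' deposited table. It had 3.46 TPM with endotoxin and 4.55 TPM in controls, a log2 fold change of -0.27 ± 0.11 (unadjusted p = 0.0142, adjusted p = 0.221) by the authors' deposited table. Its accessory subunit POLA2 was at -0.09 ± 0.16 and the primase subunit PRIM1, in the same complex, at -0.23 ± 0.19 according to the authors' deposited table. Of the polymerases that do the bulk of synthesis, the listed subunits POLE2 and POLD1 were close to 0. Their subunits outside the list were spread more widely by the authors' deposited table: POLD3 at -0.38 ± 0.16, POLE at -0.25 ± 0.21 and POLD2 at 0.13 ± 0.15. POLE2, an accessory subunit of the leading-strand polymerase, had 3.13 TPM with endotoxin and 3.39 TPM in controls (-0.02 ± 0.20), and POLD1, the catalytic subunit of the lagging-strand polymerase, was at -0.03 ± 0.16 by the authors' deposited table. All 5 were negative, with a median of -0.09.

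Of the 9 genes of the clamp, its loader and single-strand binding 7 were negative, with a median of -0.08, and none passed. PCNA was at -0.14 ± 0.19 (adjusted p = 0.887) according to the authors' deposited table. The 5 subunits of the loader that opens PCNA were spread around 0 by the authors' deposited table: RFC3 at 0.19 ± 0.18, RFC2 at 0.17 ± 0.17, RFC1 at -0.02 ± 0.10, RFC5 at -0.08 ± 0.12 and RFC4 at -0.15 ± 0.15. RFC3 had 3.66 TPM with endotoxin and 3.47 TPM in controls (adjusted p = 0.768) according to the authors' deposited table. Within RPA, RPA2 was lowest, with 27.5 TPM with endotoxin and 37.3 TPM in controls (-0.30 ± 0.18, unadjusted p = 0.0964, adjusted p = 0.505) by the authors' deposited table. RPA3 was at -0.27 ± 0.20 and RPA1 at -0.01 ± 0.11 according to the authors' deposited table.

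All 4 genes that finish Okazaki fragments or build new chromatin were negative, with a median of -0.18, and none passed. UHRF1, which reads hemimethylated DNA behind the fork and brings in the maintenance methyltransferase, had 4.15 TPM with endotoxin and 5.39 TPM in controls (-0.28 ± 0.18, adjusted p = 0.574) by the authors' deposited table. LIG1, the ligase that seals lagging-strand fragments, was at -0.18 ± 0.15, and FEN1, the nuclease that trims their flaps, at -0.06 ± 0.21 according to the authors' deposited table. CHAF1A, a subunit of the chaperone that deposits histones on new DNA, was at -0.18 ± 0.22 by the authors' deposited table.

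Of the genes of nucleotide supply, TYMS (thymidylate synthase) had 15.2 TPM with endotoxin and 21.6 TPM in controls according to the authors' deposited table. Its log2 fold change was -0.41 ± 0.17 (unadjusted p = 0.0194, adjusted p = 0.254) by the authors' deposited table, so it did not pass. RRM1, the large subunit of ribonucleotide reductase, had 18.2 TPM with endotoxin and 21.9 TPM in controls (-0.17 ± 0.15, adjusted p = 0.73), and TK1, the thymidine kinase of the salvage route, was at -0.25 ± 0.26 according to the authors' deposited table. The cyclin E genes CCNE2 and CCNE1 were at -0.41 ± 0.29 (adjusted p = 0.625) and -0.21 ± 0.25 (adjusted p = 0.844) by the authors' deposited table.

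The standard errors bound how large a change could have been missed. Over the 39 genes the SE lay between 0.10 and 0.31, with a median of 0.18, against a median of 0.20 for all rows averaging 1 TPM or more, according to the authors' deposited table. The 95% interval, the fold change ± 1.96 SE, excluded a 2-fold fall for 39 of 39 genes and a 2-fold rise for 39 of 39 by the authors' deposited table. GINS3 came nearest to a 2-fold fall, with a lower end of -0.996. A fall of 0.5 on the log2 scale was excluded for 22 of the 39 genes, among them MCM7, POLA1 and RFC5, but not for PCNA, CDC6 or TYMS, according to the authors' deposited table. These intervals are for single genes and are not adjusted for their number. They rest on the authors' SE and on a normal multiplier, with 5 libraries in each group. A slightly wider interval would reach a 2-fold fall for GINS3.

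Other genes of the same processes gave a mixed picture. Among 34 measured genes of the remaining replication machinery 21 were negative, with a median of -0.07, and none passed the threshold by the authors' deposited table. Those with the smallest p were ATAD5, which helps to unload PCNA, at -0.48 ± 0.19 (adjusted p = 0.191), and POLD3, a polymerase delta subunit, at -0.38 ± 0.16 (adjusted p = 0.24), according to the authors' deposited table. Among 13 measured genes of S-phase chromatin and nucleotides 7 were negative, with a median of -0.01, and none passed. SAMHD1, which breaks down nucleotides, was at 0.34 ± 0.14 (adjusted p = 0.244) and DCK, a salvage kinase, at -0.49 ± 0.22 (adjusted p = 0.271) by the authors' deposited table. At an unadjusted p under 0.05, 3 of the 34 and 2 of the 13 were counted in either direction, beside 12.9% of all tested rows, which is near the background.

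Among 27 measured genes of G1 and S control 20 were negative, with a median of -0.23, and none passed. The smallest p belonged to the retinoblastoma gene RB1, which restrains E2F factors, at -0.51 ± 0.20 (adjusted p = 0.186), and its relative RBL2 at -0.41 ± 0.16 (adjusted p = 0.193), according to the authors' deposited table. At an unadjusted p under 0.05, 7 of the 27 were lower and 2 higher, beside 5.35% of all tested rows lower and 7.58% higher. The share lower was above its background and the share higher was near it, and neither difference was tested. Among 17 measured genes of the checkpoint and replication stress response 10 were negative, with a median of -0.08, and none passed. ATRIP, the partner of the ATR kinase at stalled forks, was at 0.51 ± 0.18 (adjusted p = 0.134) and BRCA1 at -0.50 ± 0.23 (adjusted p = 0.322) by the authors' deposited table, and at an unadjusted p under 0.05 they were the 2 counted, also near the background of 12.9%.

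**Figure D3:**
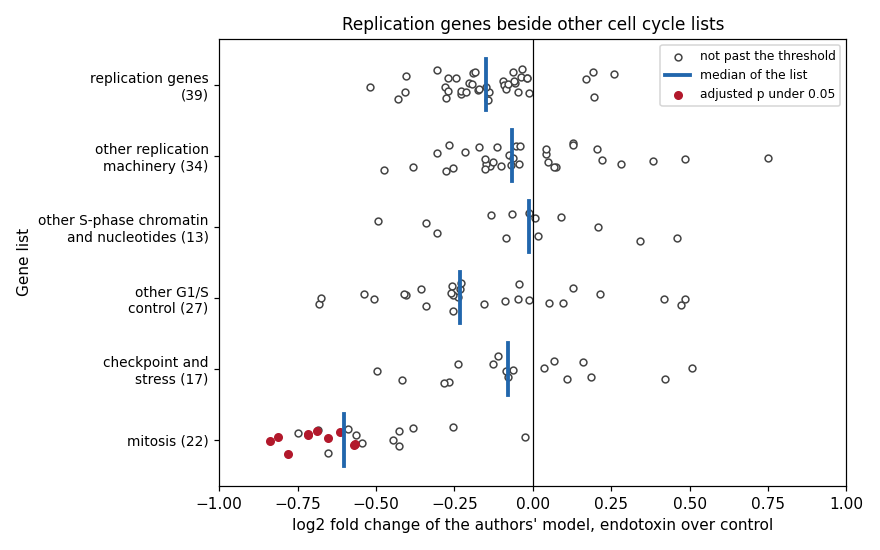
Log2 fold change of each measured gene in the replication list and in 5 further cell cycle lists, with the number of genes in parentheses. Filled red points passed an adjusted p of 0.05 and blue bars are list medians, which lie at -0.15 for the replication genes and -0.60 for the mitosis genes. Points are shifted up or down at random only to separate them.

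The genes of mitosis, measured in the same libraries, stood lower than those of replication. Of 22 measured mitosis genes 10 fell, 0 rose and 22 were negative according to the authors' deposited table, the median being -0.60, beside the background of 0.426% of rows lower. The 10 were ASPM, ANLN, CENPF, TOP2A, BUB1B, CDK1, NDC80, PRC1, UBE2C and NUSAP1, and their adjusted p lay between 0.000162 and 0.0434 by the authors' deposited table. ANLN, a scaffold of the cleavage furrow, had 1.92 TPM with endotoxin and 3.69 TPM in controls (-0.84 ± 0.19, adjusted p = 0.00181), and ASPM, a spindle pole protein, had 0.750 TPM with endotoxin and 1.41 TPM in controls (-0.78 ± 0.15, adjusted p = 0.000162), according to the authors' deposited table. The precision of both lists was alike, with a median SE of 0.18 for replication genes and 0.19 for mitosis genes. Summed TPM differed by -38.5% in the mitosis list and by -17.0% in the replication list. Mitosis genes overlap the replication genes in range: the highest of the mitosis list, named after their values were seen, were AURKA at -0.03 ± 0.19 and PLK1 at -0.25 ± 0.16 by the authors' deposited table. The difference between the lists was not tested, since there is only a group mean per gene. The lists were drawn up with a fall of some mitosis genes already known. The 10 calls are those of the authors' test. On the counts of the same libraries, edgeR's quasi-likelihood test (below) called 1 gene lower. At most 1 of the 10 could therefore pass that test. DESeq2 called 368 genes in either direction on those counts, without symbols to name them.

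Markers of several cell types also differed between the groups. Cortex and chromaffin markers, which check the labelled tissue, were present at high levels, for example HSD3B1 with 2703 TPM with endotoxin and 1235 TPM in controls, and CHGA with 3648 TPM with endotoxin and 4096 TPM in controls, according to the authors' deposited table. Of 7 measured cortex markers 5 rose and 0 fell, and of 7 neutrophil markers 7 rose, with summed levels of 2074 TPM with endotoxin and 48.9 TPM in controls, by the authors' deposited table. MARCO rose alone among 6 macrophage markers, whose sum was 99.6 TPM with endotoxin and 78.1 TPM in controls according to the authors' deposited table. HBM rose alone among 6 markers of red cells, whose sum was 55.3 TPM with endotoxin and 33.9 TPM in controls by the authors' deposited table. The 6 fibroblast and capsule markers were all negative, with a median of -0.48, none passed, and their sum was 1026 TPM with endotoxin and 1617 TPM in controls by the authors' deposited table. None of the chromaffin, lymphocyte, endothelial or Schwann markers passed the threshold. Not all of them were flat, since PNMT of the chromaffin list was at 2.07 ± 0.73 (adjusted p = 0.123) by the authors' deposited table. It had 1307 TPM with endotoxin and 330 TPM in controls. Of the 5 measured chromaffin markers 3 were positive and 2 negative. Whether these shifts have a part in the values of the replication genes was not tested.

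**Figure D4:**
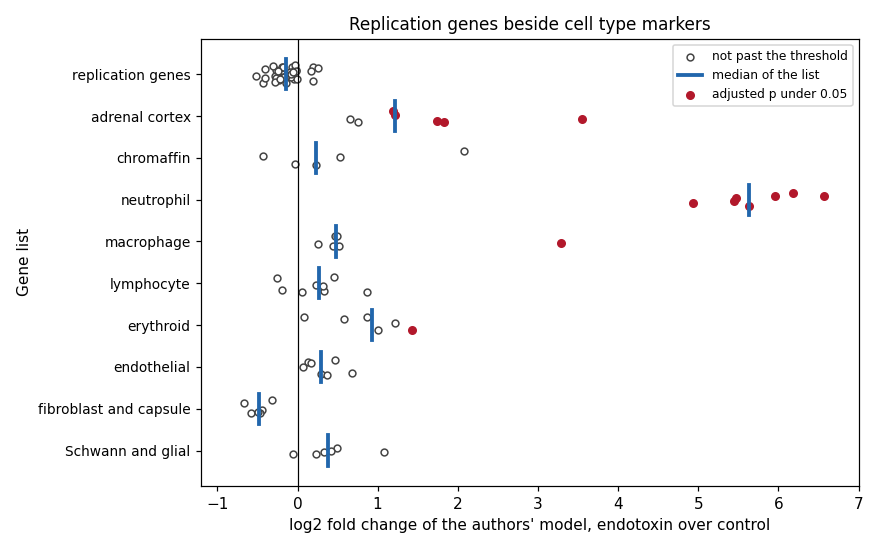
Log2 fold change of the replication genes beside markers of 9 cell types of the gland and its blood, with filled red points past an adjusted p of 0.05 and blue bars at list medians. The replication genes cluster just below 0 (median -0.15), neutrophil markers lie highest (median 5.63) and fibroblast and capsule markers lowest (median -0.48). Of the Schwann and glial markers 2 have no p according to the authors' deposited table and are drawn open.

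The authors' deposited table of pathway enrichment lists the KEGG category of the cell cycle with 4 of 104 genes changed (unadjusted p = 0.193, adjusted p = 0.45 over the 98 categories listed). The changed genes named there are CDK1, BUB1B, MAD2L1 and TGFB2.

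At the level of libraries, totals ran from 12494386 to 18324516 estimated counts. edgeR's quasi-likelihood test on the count table, whose gene IDs carry no symbols, found 29 of 14869 genes (0.195%) with p under 0.05 after Benjamini-Hochberg adjustment, with 28 higher and 1 lower with endotoxin. DESeq2 called 368 genes on the same counts. Any replication gene among them could not be named. Leaving out endotoxin replicate 4 gave 63 genes, leaving out control replicate 1 gave 17, and leaving out control replicate 3 gave 18. The authors' deposited table has no values per library, so its fold changes could not be examined in this way.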

How the data were processed

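A strand-specific kit was used for the 10 libraries, per the labels' protocols. Tools listed by the submitters' processing notes, with no roles, are Salmon 0.9.1, fastp 0.19.4 and DESeq2, along with the build Oar_v3.1. The authors deposited estimated counts and TPM per library, with gene IDs lacking symbols, and a table with mean TPM per group, a log2 column, its standard error, p-values with and without adjustment, and a test score. The deposited log2 column equals the log2 ratio of mean TPM plus 1 in all 19316 rows. The p-value equals the two-sided normal p of the score in 19236 rows, and in the other 80 it is set to 1, which was treated as no p. The log2 fold changes printed are the score times its standard error, and intervals are at 95%. The authors' deposited pathway table gives numbers of genes and p-values, which were adjusted here by Benjamini-Hochberg.

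The estimated counts, deposited by the authors, were rounded and tested with edgeR 4.0.16 (TMM, filterByExpr, group as the model) in R 4.3.3, with DESeq2 1.42.0 as an alternative. Only the Benjamini-Hochberg adjustment and the edgeR calls were tried on simulated data. The fold changes and intervals of named genes were not. P-values rest on each test's model of the spread between these libraries. No label says whether the libraries are from separate pregnancies. Genes and lists were chosen with earlier results of these data known. The text names all genes of the list. From each further cell cycle list it names those past the threshold or, with none past it, the pair with the smallest p. Marker lists are given by counts, with examples. AURKA, PLK1, POLE, POLD2 and the regulators under other observations were named after their values were seen. A planned test of named genes per library was not run, because symbols are not paired with those IDs. Coordinates and sequences were not used here.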

Additional observations from a re-analysis of the deposited data

How the results depend on the processing

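The count of replication genes past the threshold was 0 with an adjusted p under 0.1, and with p-values adjusted over rows averaging 1 TPM or more, over all rows with a p, or over rows with a symbol. Their median log2 fold change lay between -0.27 (log2 ratio of mean TPM plus 0.1) and -0.15, with the same sign in all 5 alternatives. Taking the row with the lower mean, or only genes averaging 1 TPM or more, could not change it. Each symbol has a single row, and all 39 average 1 TPM or more. The mitosis count was 15 with an adjusted p under 0.1 and 10 in the other alternatives. For both counts these settings reuse the authors' p-values, so they do not test another model. Adjusting over all rows with a p repeats the authors' own adjustment and could not differ. In the count table edgeR called 29 genes, DESeq2 called 368, and edgeR called between 17 and 63 when 1 library was left out. With the replicate block edgeR called 12. Samples share only a number there: correlations of deviations in the 4 same-numbered pairs were 0.06, -0.06, -0.19 and 0.10, and 0 of 4 endotoxin libraries correlated best with their own number. No paired analysis was possible for named genes because the authors' deposited table gives group means only. The planned test of named genes in the count table was not run. Depth of single genes cannot be given for the same reason.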

Other observations

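Within the lists of G1 and S control and of replication, several regulators that act on the replication genes were looked at after their values had been seen. None of them passed an adjusted p of 0.05. The 3 pocket proteins, which hold E2F factors in check, all had negative values: RB1 at -0.51 ± 0.20, RBL2 at -0.41 ± 0.16 and RBL1 at -0.34 ± 0.16 by the authors' deposited table (log2 fold change ± SE). Of the D-type cyclins, which act in the step before them, CCND3 was at 0.48 ± 0.20 and CCND2 at -0.23 ± 0.20 by the authors' deposited table. The kinases that D cyclins activate, CDK6 and CDK4, were at -0.68 ± 0.32 and -0.04 ± 0.14 by the authors' deposited table. The 4 measured inhibitors of cyclin-dependent kinases were CDKN2D at 0.47 ± 0.34, CDKN1B at -0.05 ± 0.15, CDKN1A at -0.23 ± 0.28 and CDKN2C at -0.36 ± 0.18 by the authors' deposited table. E2F4, a factor that pocket proteins use to repress, was at 0.42 ± 0.21 (adjusted p = 0.358) by the authors' deposited table. The other measured E2F genes lay on both sides of 0 by the authors' deposited table. E2F6 was at 0.13 ± 0.18, E2F3 at 0.10 ± 0.26, E2F2 at 0.05 ± 0.28 and E2F5 at -0.01 ± 0.13. E2F8 was at -0.26 ± 0.21 and E2F7 at -0.68 ± 0.32, both averaging under 1 TPM. CCNA2, a cyclin of S phase and G2, had 9.54 TPM with endotoxin and 14.6 TPM in controls (-0.54 ± 0.22, adjusted p = 0.225) by the authors' deposited table. MCMBP, which binds MCM proteins, had 18.7 TPM with endotoxin and 15.6 TPM in controls (0.38 ± 0.18, adjusted p = 0.336) by the authors' deposited table, on the other side of 0 from 4 of the 5 measured ring subunits.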
